A study of Mus musculus with 21 samples.

Results

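Axon guidance genes encode the cues that steer growing axons and the receptors with which growth cones read them. They were taken by gene symbol alone: a probe set belonged if its only symbol began with Slit, Robo, Epha, Ephb, Efna, Efnb, Sema, Plxn, Ntn or Unc5 followed by the usual numbering, or was Nrp1, Nrp2 or Dcc. This gave 162 probe sets of 73 genes, out of 45037 probe sets tested and 18193 genes with a probe set of their own. Cues made up 83 of the probe sets (6 for Slits, 17 for ephrins, 48 for semaphorins and 12 for netrins). Receptors made up 79 (7 for Robos, 28 for Eph receptors, 23 for plexins, 8 for neuropilins and 13 for Dcc and the Unc5 group). The rule also drew in 3 genes by their names: Plxna4os1, a transcript antisense to a plexin gene, Unc50, a protein of the Golgi membrane, and Unc5cl, a relative of Unc5c that is no netrin receptor. Their probe sets are included in the receptor counts here and below.

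Slits are secreted repellents read by Robo receptors, and the netrin Ntn1 attracts through Dcc and repels through Unc5 receptors. The other netrins here, Ntng1 and Ntng2 among them, are grouped with it by name. Ephrins are anchored in the membrane and act on Eph receptor kinases at points of contact, with signals in both directions. Semaphorins act on plexins, and most secreted class 3 semaphorins need a neuropilin as co-receptor. In the young cerebellum these systems take part in granule cell migration, in the laying down of the molecular layer and in synapse formation.

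The study compared mice without cystatin B (Cstb-/-), a model of the progressive myoclonus epilepsy Unverricht-Lundborg disease, with wild type controls on Affymetrix mouse genome arrays. All mice had the strain background 129SvJ. Whole cerebella were taken at postnatal day 7 (P7, before symptoms; 4 Cstb-/- and 4 control arrays) and at day 30 (P30; 3 and 3 arrays). Cerebellar granule cell cultures (CGCs) came from pups at day 5 with the meninges dissected off, received the antimitotic AraC against dividing glia, were collected after 2 days in vitro and gave the 3 Cstb-/- and 4 control arrays analysed here. The methods describe more culture arrays of each genotype than these. The labels number the arrays of a group but do not say how many animals a culture drew on, so p-values measure the spread between these arrays. In tissue and in cultures alike, fewer cells of a type and less RNA per cell cannot be told apart.

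Values were log2 signals from which the authors had removed the median of each probe set, so that a value can be compared with other arrays of its own experiment and with nothing else. It cannot be seen whether a gene or a marker was present at all, and neither the tissue labels nor zero levels could be checked. Below, array values have the control mean of their experiment subtracted, and a difference is the Cstb-/- mean minus the control mean with its standard error (SE) from limma. The word changed is kept for probe sets with at least a 1.3-fold difference (0.38 on the log2 scale) and an adjusted p under 0.05 in cerebella or under 0.01 in CGCs. Both Cstb probe sets fell in every experiment, with differences from -3.10 to -1.86 and no overlap between genotypes. At P7, 3 of the 4 Cstb-/- arrays but 1 of the 4 control arrays were labelled male. In CGCs, the sex genes Xist and Eif2s3y went against the labelled sex on Cstb-/- arrays 1 and 2, and control arrays 7 and 8 held signal of both. At P30, 1 Cstb-/- array was labelled female, whereas the methods describe males alone, and these genes showed no sex difference among the arrays.

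None of the 162 axon guidance probe sets passed the limma thresholds in P7 cerebella, in P30 cerebella or in CGCs. Over all probe sets the share called was 0.00666% at P7, 0.144% at P30 and 2.54% in CGCs (2.07% higher and 0.469% lower). At an unadjusted p under 0.05, 22 axon guidance probe sets stood out at P7 (13.6%, against 9.45% of all probe sets). At P30 there were 18 (11.1%, against 7.72%), and in CGCs 39 (24.1%, against 31.6%). The methods' t-test with correction over all probe sets also called 0 in each experiment. When its correction was limited to probe sets past the fold, it called 5 at P7, 1 at P30 and 0 in CGCs.

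The differences were small at P7, from -0.46 to 0.49, and at P30, from -0.26 to 0.45, and wider in CGCs, from -1.003 to 1.03. The median difference of the 162 probe sets was 0.04 at P7, 0.03 at P30 and -0.05 in CGCs, beside 0.01, -0.01 and -0.02 over all probe sets. The typical 95% confidence interval reached 0.21 to either side of a difference at P7 and at P30, and 0.25 in CGCs. It lay wholly inside a 1.3-fold change for 108, 110 and 80 of the 162 probe sets. For these the arrays bound the difference below the fold threshold. For the others the interval reached past that threshold, so a larger difference was not excluded. Some of those intervals, given below, left out 0, and the rest did not.

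**Figure D1:**
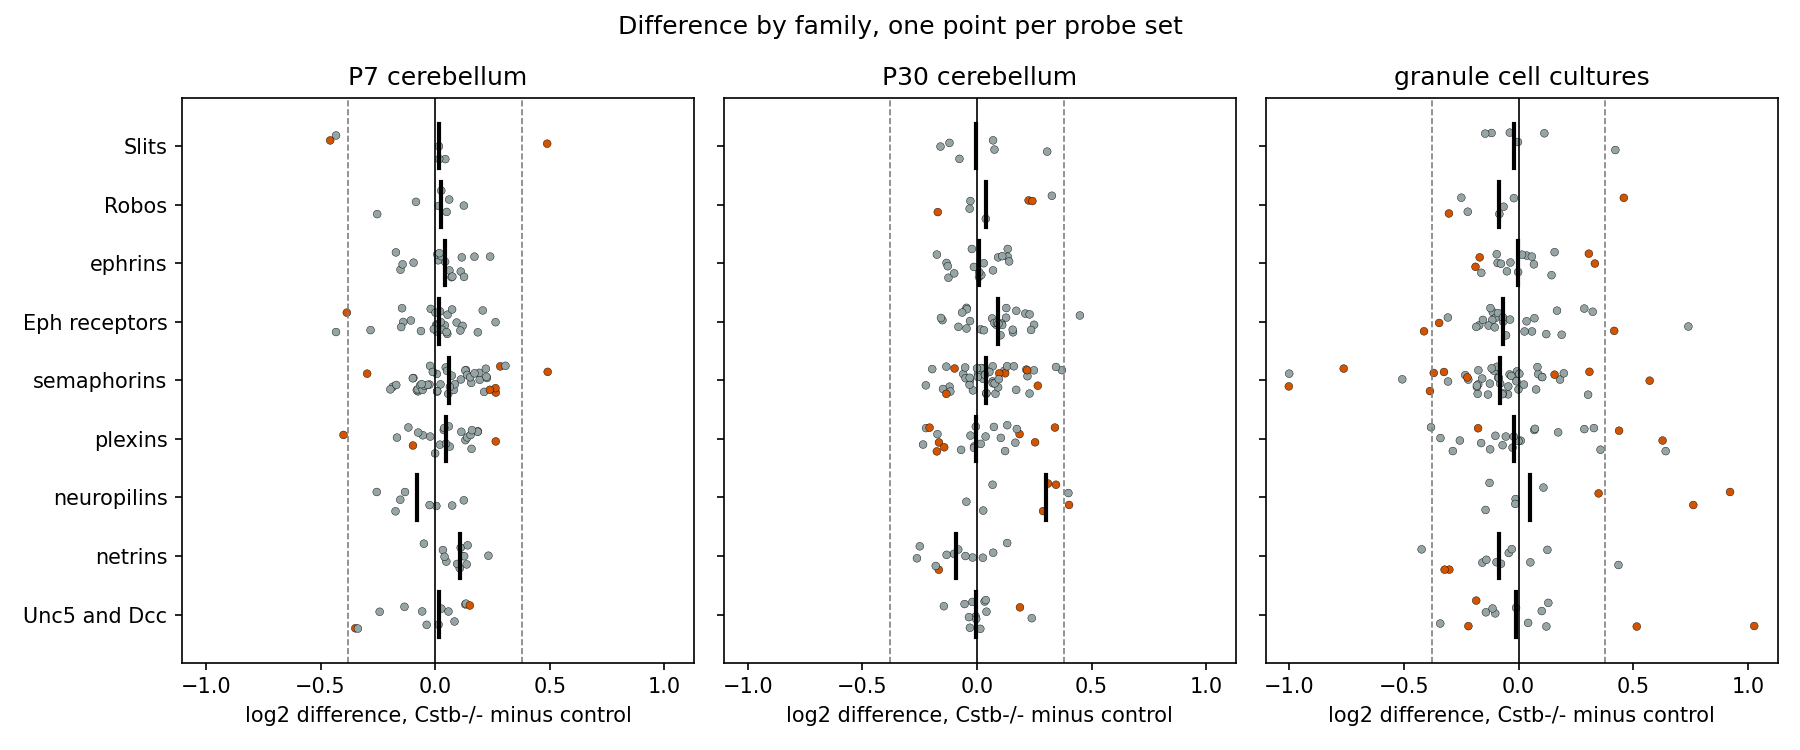
Difference in log2 signal (Cstb-/- minus control, horizontal axis) of each of the 162 axon guidance probe sets, by family (rows) and experiment (panels). Each point is a probe set, orange where the arrays of the genotypes did not overlap (15 at P7, 22 at P30 and 30 in CGCs); black bars are family medians and dashed lines mark a 1.3-fold change. Most points lie near 0 in the cerebella and spread further in the cultures.

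In P7 cerebella, the arrays of the genotypes did not overlap for 15 axon guidance probe sets, 9 higher and 6 lower in Cstb-/- (9.26%, against 5.65% of all probe sets). They came from 13 genes. The secreted repellents of the Slit family went both ways. Slit3, with a single probe set, read 0.30, 0.32, 0.47 and 0.86 in the Cstb-/- cerebella and 0.06, -0.11, 0.00 and 0.06 in the controls (difference 0.49, SE 0.12, adjusted p = 0.283 by limma). Each Cstb-/- array lay above each control.

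Slit2 was read by 3 probe sets that did not move alike. Probe set 1458140_at read -0.50, -0.33, -0.48 and -0.53 in Cstb-/- and 0.16, -0.04, 0.17 and -0.30 in controls (difference -0.46, SE 0.11, adjusted p = 0.272 by limma), with a gap between Cstb-/- array 2 and control array 4 of a few hundredths. Probe set 1424659_at was lower by nearly the same amount (-0.43), with 1 Cstb-/- array inside the control range. The third, 1451430_at, read 0.00, 0.22, -0.03 and -0.12 against -0.11, -0.02, 0.05 and 0.08 (difference 0.02, 95% interval -0.17 to 0.20). A fall as large as that of its neighbours thus lies outside its interval. Slit1, with 2 probe sets, differed by 0.02 and 0.04.

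Among the semaphorins at P7, 31 of 48 probe sets were higher and the family median was 0.06. Sema4d, a transmembrane semaphorin made by oligodendrocytes that binds Plxnb1, was higher on all 3 of its probe sets. On 1434596_at the Cstb-/- arrays read 0.29, 0.56, 0.79 and 0.31 and the controls 0.01, -0.07, -0.06 and 0.12 (difference 0.49, SE 0.11, adjusted p = 0.269 by limma). The groups did not overlap there, nor on 1420824_at (0.26), whereas they did on 1420823_at (0.19). Sema3g, with a single probe set, and Sema4a on 1448110_at were also higher without overlap, by 0.28 and 0.26, and the second Sema4a probe set differed by -0.07. Sema3a, the secreted repellent that acts through Nrp1, went the other way on 1449865_at, with -0.23, -0.11, -0.51 and -0.34 in Cstb-/- and 0.06, -0.02, 0.01 and -0.05 in controls (difference -0.30, SE 0.09, adjusted p = 0.397 by limma). Its other 2 probe sets differed by -0.07 and 0.11.

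The receptors with the clearest separation at P7 were lower in Cstb-/-. Plxnc1, the receptor of Sema7a, read -0.32, -0.46, -0.38 and -0.44 on 1423214_at against -0.08, -0.10, 0.03 and 0.14 in controls. Its difference of -0.40 (SE 0.08, 95% interval -0.57 to -0.23) had the smallest adjusted p of the 162 probe sets at P7, 0.206 by limma. Its other 5 probe sets differed by -0.12 to 0.16. Dcc, the attractive netrin receptor, stood between -0.36 and -0.34 on all 4 Cstb-/- arrays on 1440487_at, and at -0.16, 0.11, 0.06 and -0.01 in controls (difference -0.35, SE 0.07, adjusted p = 0.240 by limma). A second Dcc probe set differed by -0.24 and the third by 0.13.

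Epha7, a receptor for A-type ephrins, was lower on all 4 of its probe sets at P7, but by unequal amounts. Probe set 1452380_at read -0.35, -0.25, -0.45 and -0.49 in Cstb-/- and -0.10, 0.15, 0.02 and -0.07 in controls (difference -0.39, SE 0.08, adjusted p = 0.241 by limma), without overlap. The other 3 differed by -0.28, -0.15 and -0.06, and their arrays overlapped. Epha4 was lower by 0.43 on 1429021_at alone, where control array 4 read -0.45, inside the Cstb-/- range of -0.67 to -0.13. Its other 4 probe sets differed by -0.02 to 0.12. Slit2 and Epha7 are followed here because the study singled them out on these same arrays, so their direction is no independent evidence. The study listed Slit2 on 1424659_at and Epha7 on 1452380_at.

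Among the remaining families at P7, netrins were higher on 11 of 12 probe sets, with a median of 0.11. None of these was without overlap, and the largest was Ntn4, a basement membrane netrin, at 0.23. Ephrins ranged from -0.17 to 0.24, the highest being Efnb2, a transmembrane ephrin, on 1449548_at. Its other 3 probe sets differed by -0.15, -0.14 and 0.02. Robos ranged from -0.25 to 0.13, and neuropilins from -0.25 to 0.13 with a median of -0.08. Plxnb3, a plexin that binds Sema5a, was higher without overlap by 0.26 on 1 of its 2 probe sets (0.16 on the other). Plxna4os1, Unc50 and Unc5cl stayed between -0.06 and 0.13.

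**Figure D2:**
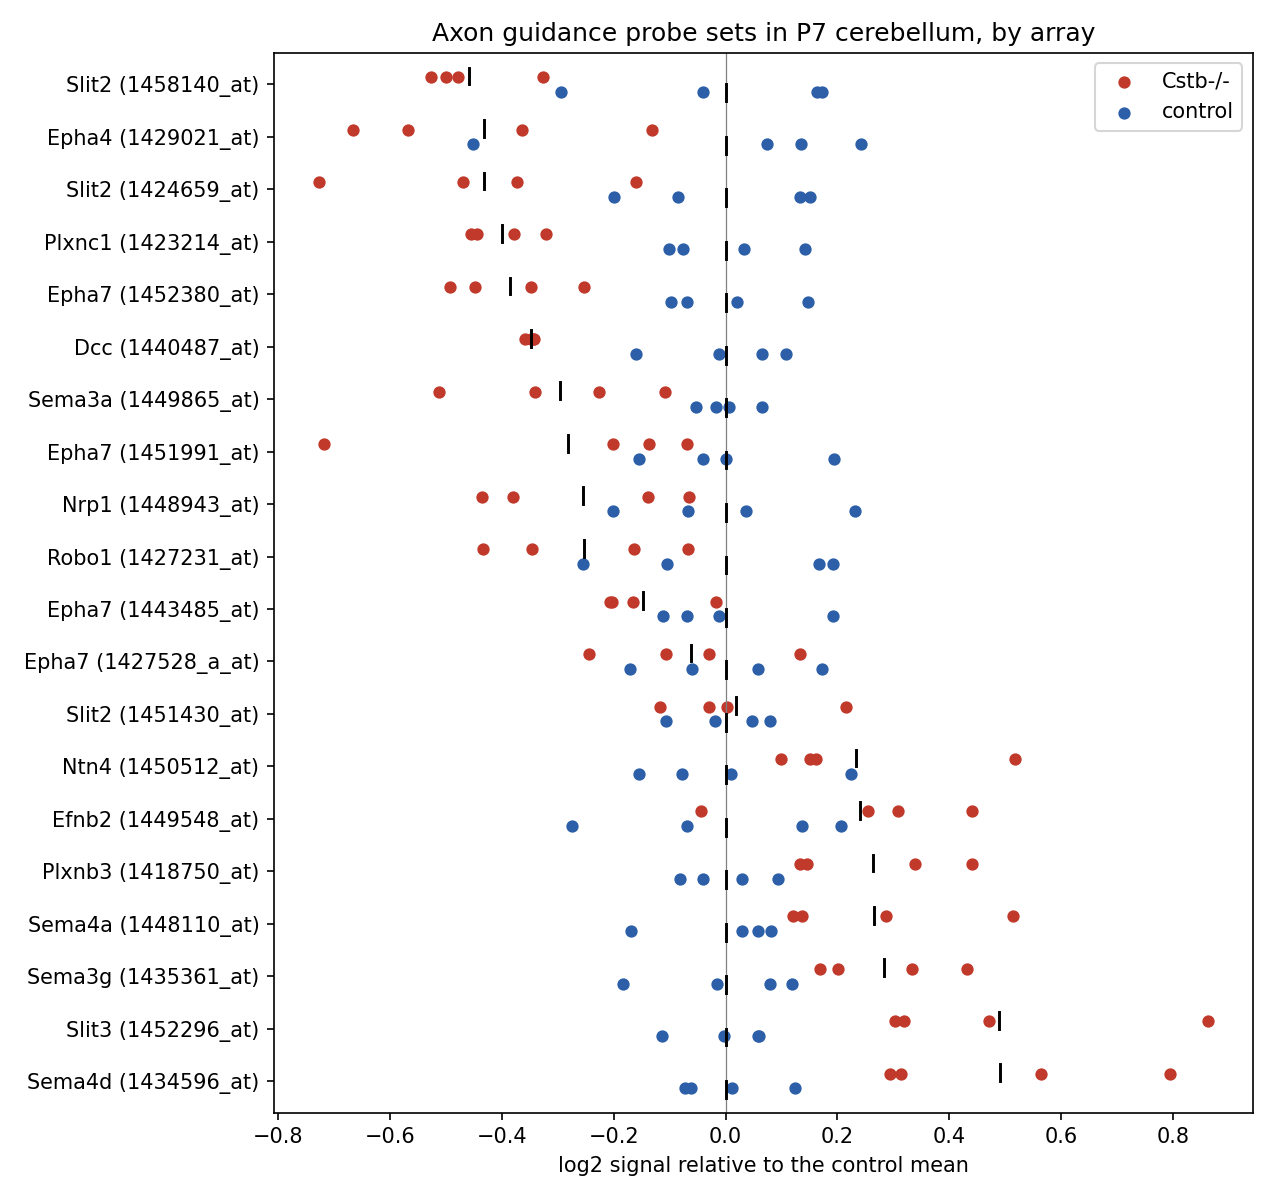
log2 signal of named axon guidance probe sets in P7 cerebellum relative to the control mean (horizontal axis), with 1 row per probe set, a red point for each Cstb-/- array, a blue point for each control array and black bars at the group means. The arrays of Plxnc1, Dcc and Slit3 part by genotype, while the 3 rows of Slit2 and the 4 rows of Epha7 part to different degrees.

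With the labelled sex as a covariate, limma called 8 axon guidance probe sets at P7, beside 2.46% of all probe sets. They were both lower Slit2 probe sets (-0.54 and -0.58), Slit3 (0.61), Plxnc1 (-0.43), Epha7 1452380_at (-0.43), Sema6a 1421414_a_at (0.48), Nrp1 1448944_at (-0.40) and Unc5d (-0.56), a netrin receptor. The methods' t-test corrected over probe sets past the fold called Plxnc1, Sema4d, Slit3, Epha7 and Slit2, each on 1 probe set, beside 0.451% of all probe sets. For Slit2 this was 1458140_at, and 1424659_at, which the study listed, was not called. 

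Markers of other cell types also parted the P7 arrays. Oligodendrocyte markers had a median difference of 0.47, with 26 of 28 probe sets higher and the mean over the list between 0.35 and 0.75 on Cstb-/- arrays and between -0.22 and 0.16 on controls. Choroid plexus markers had a median of -1.81, with 15 of 18 lower, and list means from -2.44 to -0.31 in Cstb-/- and from -0.19 to 0.15 in controls. Meningeal fibroblast markers were lower on 23 of 25 probe sets (median -0.11, list means -0.26 to -0.09 against -0.04 to 0.07). Granule neuron markers parted the arrays too: 15 of 21 were higher (median 0.17), 6 of them without overlap, with list means of 0.18 to 0.29 in Cstb-/- and -0.08 to 0.07 in controls. Markers of proliferating cells were lower on 19 of 21 probe sets (median -0.14, list means -0.24 to -0.06 against -0.07 to 0.06). None of these probe sets passed the thresholds, and their part in the values of the guidance genes was not tested.

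In P30 cerebella, 22 axon guidance probe sets did not overlap between genotypes, 14 higher and 8 lower in Cstb-/- (13.6%, against 12.5% of all probe sets). That share is close to the background. The neuropilins, co-receptors for class 3 semaphorins and for vascular growth factors, stood highest: 7 of 8 probe sets were higher, the family median was 0.30 and 4 did not overlap. The medians of the other families lay between -0.09 and 0.09.

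Nrp1 was higher on 3 of its 4 probe sets at P30. Probe set 1448943_at read 0.29, 0.28 and 0.46 in Cstb-/- and 0.12, 0.05 and -0.17 in controls (difference 0.35, SE 0.10, adjusted p = 0.436 by limma). On 1418084_at the values were 0.29, 0.37 and 0.28 against 0.01, 0.13 and -0.13 (difference 0.31, adjusted p = 0.409 by limma), and on 1448944_at the difference was 0.29. None of the 3 overlapped, while 1457198_at differed by -0.05 (95% interval -0.23 to 0.14).

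Nrp2 split in the same manner. Probe set 1447343_at read 0.54, 0.33 and 0.34 in Cstb-/- and -0.02, 0.02 and 0.00 in controls (difference 0.40, SE 0.08, 95% interval 0.22 to 0.58), with the smallest adjusted p of all axon guidance probe sets at P30, 0.184 by limma. It passed with array weights (0.43, beside 0.502% of all probe sets called) and in the methods' t-test corrected over probe sets past the fold (beside 0.466%). On 1435349_at the difference was also 0.40, with Cstb-/- array 2 at 0.09, inside the control range. The other 2 probe sets differed by 0.07 and 0.03.

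**Figure D3:**
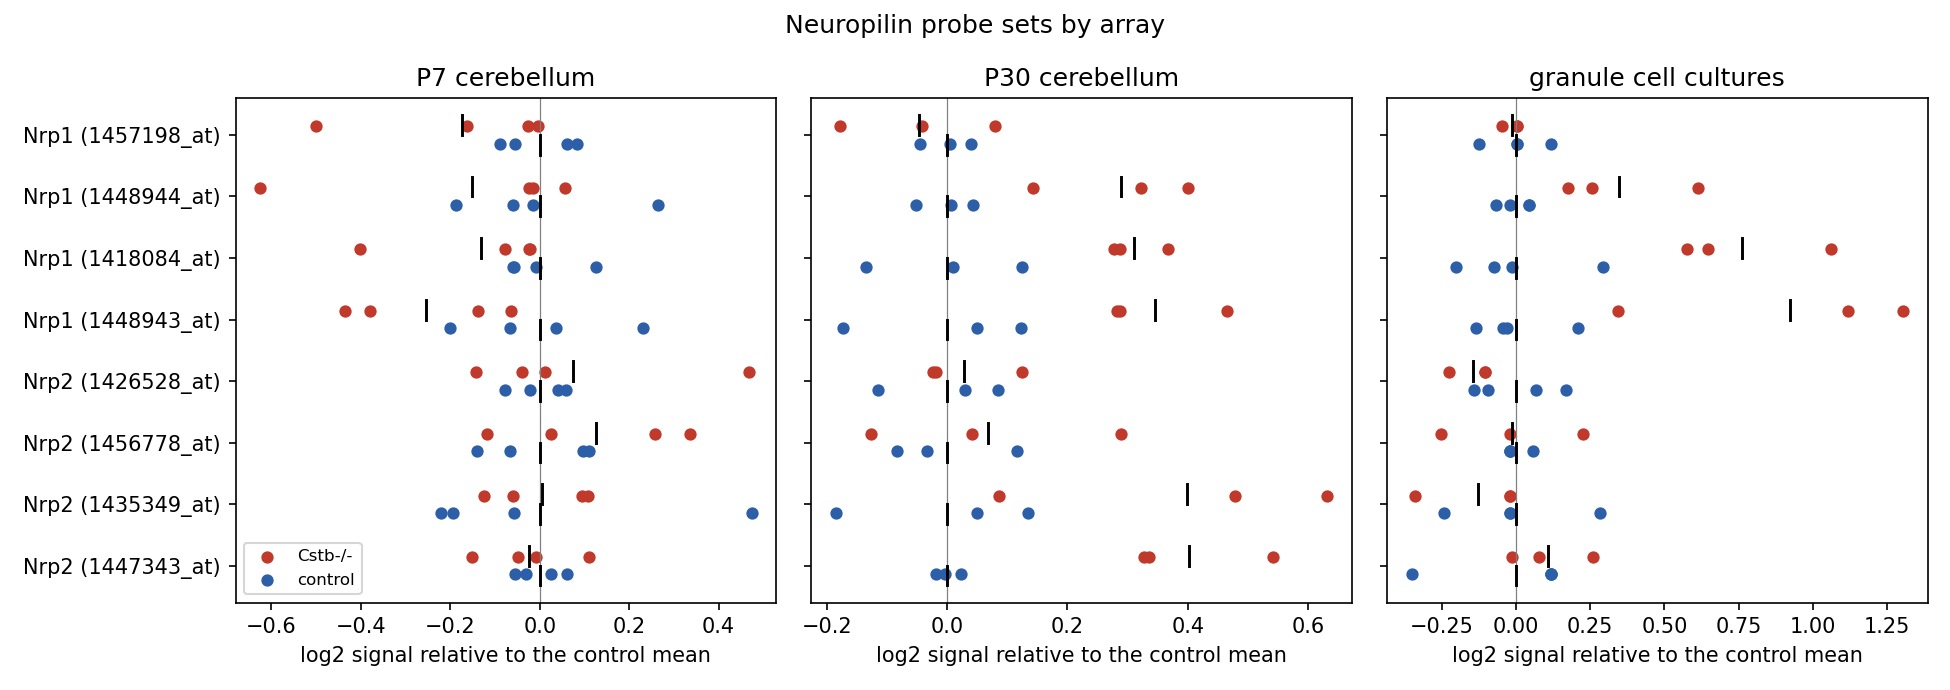
log2 signal of the 8 neuropilin probe sets relative to the control mean (horizontal axis, scaled separately in each panel) in the 3 experiments, with 1 point per array (red Cstb-/-, blue control) and black bars at the group means. At P30 and in CGCs the same 3 Nrp1 probe sets lie above their controls and 1457198_at does not, and at P7 the arrays of all 8 overlap.

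Among the other receptors at P30, Plxnb1, a receptor for Sema4d, read 0.45, 0.28 and 0.29 on 1435254_at against 0.01, -0.07 and 0.07 (difference 0.34, SE 0.08, adjusted p = 0.309 by limma). Its second probe set differed by 0.10 and overlapped. Epha5 had the largest difference of all on 1435286_at, 0.45 (SE 0.16), but control array 3 at 0.40 lay among the Cstb-/- values of 0.36, 0.40 and 0.59. Robo1, a Slit receptor, was higher by 0.33 on 1427231_at, where the arrays overlapped, and lower by 0.17 on 1457407_at, where they did not. The single probe sets of Robo2 and of Robo4, a Robo of endothelial cells, were higher without overlap by 0.23 and 0.24, and are named here after their values were seen. Plxna4, which pairs with neuropilins, differed by -0.17 on both its probe sets, and the antisense Plxna4os1 by -0.21, all 3 without overlap.

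Cues ranged from -0.26 to 0.37 at P30, and receptors from -0.23 to 0.45. Sema3a 1449865_at, lower at P7, read 0.56, 0.49 and 0.07 in Cstb-/- and -0.17, -0.06 and 0.23 in controls (difference 0.37, SE 0.14, adjusted p = 0.599 by limma), with 1 Cstb-/- array below 1 control. Its other 2 probe sets were higher by 0.25 and 0.23. Slit1 differed by 0.31 on 1440056_at, with Cstb-/- array 3 at 0.67 and the other two at 0.17 and 0.08. Slit2 scattered widely on 1424659_at, from -0.77 to 0.32 in Cstb-/- and from -0.54 to 0.70 in controls, so that its difference of -0.16 had an SE of 0.33. Choroid plexus markers, lower on 18 of 18 probe sets at P30 (median -0.86), scattered as well, with list means of -2.65, 0.69 and -2.50 on Cstb-/- arrays 1 to 3 and of -0.01, -0.62 and 0.63 on the controls. The highest and lowest control array was the same for Slit2 and for that list, as were the highest and lowest Cstb-/- array, and the part of these cells was not tested. Netrins were lower on 9 of 12 probe sets (median -0.09), led by Ntng1, a netrin anchored in the membrane, at -0.26. Ephrins stayed between -0.17 and 0.14. Epha7 differed by 0.08 to 0.16 on its 4 probe sets.

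Microglial markers moved clearly at P30. Of 16 probe sets 9 changed, all higher, with list means from 0.92 to 1.15 in Cstb-/- and from -0.14 to 0.12 in controls. Of 31 astrocyte and Bergmann glia probe sets 28 were higher, 16 of them without overlap (51.6%), and 3 changed, all of Gfap. Their list means lay between 0.33 and 0.38 in Cstb-/- and between -0.01 and 0.01 in controls. Endothelial markers, listed because Nrp1 and Robo4 are also made by vessels, were higher on 12 of 14 probe sets (median 0.11, list means 0.05 to 0.18 against -0.18 to 0.13) with none changed. The part of these cells in the values of the guidance genes was not tested.

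In the granule cell cultures, 30 axon guidance probe sets of 24 genes did not overlap between genotypes, 14 higher and 16 lower (18.5%, against 22.8% of all probe sets). Of the 162, 21 were past a 1.3-fold difference, and the smallest adjusted p was 0.0161. At an adjusted p under 0.05, chosen after the data were seen, limma called 10 of them at the same fold, beside 9.05% of all probe sets. Neither share was above the background. Semaphorins leaned lower, on 35 of 48 probe sets with a median of -0.08, and the medians of the other families lay between -0.09 and 0.05.

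Of the receptor probe sets in CGCs, 32 were higher and 47 lower (median -0.04), and of the cues 26 and 57 (median -0.07). Dcc 1440487_at read 1.13, 0.80 and 1.16 in Cstb-/- and 0.23, -0.78, 0.14 and 0.41 in controls (difference 1.03, SE 0.26, 95% interval 0.43 to 1.63, adjusted p = 0.0449 by limma). The Cstb-/- arrays all lay above the controls, among which array 5 stood far below the others. A second probe set, 1441572_at, was higher without overlap by 0.52, and the third, 1422162_at, differed by -0.34.

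Nrp1 was higher in CGCs on the same 3 probe sets as at P30. On 1448943_at the Cstb-/- cultures read 1.12, 1.304 and 0.34 and the controls 0.21, -0.14, -0.03 and -0.05 (difference 0.92, SE 0.21, adjusted p = 0.0318 by limma). On 1418084_at they read 1.06, 0.65 and 0.58 against -0.02, -0.07, -0.20 and 0.29 (difference 0.76, SE 0.15, adjusted p = 0.0194 by limma). The third, 1448944_at, differed by 0.35, also without overlap, and 1457198_at by -0.01 (95% interval -0.19 to 0.17). The Nrp2 probe sets differed by -0.14 to 0.11.

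Plexins and Robo1 held higher values on some of their probe sets. Plxnb1 1435254_at read 0.76, 0.50 and 0.63 in Cstb-/- and 0.43, -0.06, -0.27 and -0.11 in controls (difference 0.63, SE 0.16, adjusted p = 0.0435 by limma), and again its second probe set did not part the groups (0.00). Plxnc1 1423214_at, lower at P7, was higher by 0.64 in CGCs with overlapping arrays, and 1443434_s_at by 0.44 without overlap. Of its other 4 probe sets, 1450905_at differed by 0.29, and 1450906_at, 1443433_at and 1423213_at by -0.29, -0.12 and -0.02. Robo1 was the only gene of the set whose probe sets parted the genotypes in opposite directions. On 1427231_at the Cstb-/- cultures read 0.67, 0.31 and 0.39 against 0.01, 0.05, 0.15 and -0.21 (difference 0.46, adjusted p = 0.0446 by limma). On 1457407_at they read -0.55, -0.20 and -0.16 against -0.16, 0.19, -0.12 and 0.08 (difference -0.30, adjusted p = 0.143 by limma). The highest Cstb-/- value and the lowest control value there both round to -0.16, so that separation is slight. These probe sets read different stretches of transcript, and which transcripts they catch is not given in the sources used here.

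Eph receptors went both ways in CGCs. Epha4 was highest on 1429021_at, with 1.00, 0.21 and 1.01 in Cstb-/- and 0.24, -0.30, 0.10 and -0.04 in controls (difference 0.74, SE 0.21, adjusted p = 0.0607 by limma). Cstb-/- array 2 there lay just under control array 4. Epha3, a receptor for A-type ephrins, read on 1455426_at -0.41, -0.37 and -0.46 against -0.07, -0.26, 0.20 and 0.13 (difference -0.41, SE 0.11, adjusted p = 0.0570 by limma), without overlap, while its other 3 probe sets differed by -0.12, 0.06 and 0.29. Epha7 was lower without overlap on 1443485_at (-0.35), while the probe set that parted the P7 arrays, 1452380_at, differed by 0.17.

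The lowest values in CGCs belonged to semaphorins. Sema6c, a transmembrane semaphorin, read -1.304, -0.37 and -1.33 on 1451898_a_at and -0.30, 0.28, -0.07 and 0.09 in controls (difference -1.003, SE 0.24, adjusted p = 0.0372 by limma). Cstb-/- array 2 lay just below the lowest control, far from the other Cstb-/- arrays. Its other 2 probe sets differed by -0.16 and -0.09. Sema3f, named after its values were seen, differed by -1.001 on 1438947_x_at and -0.51 on 1425840_a_at, both with overlapping arrays, and by -0.001 on 1420508_at. Sema3c, a secreted semaphorin, was lower on both its probe sets. On 1429348_at it read -0.70, -1.02 and -0.57 against -0.12, 0.21, 0.14 and -0.23 (difference -0.76, SE 0.14, adjusted p = 0.0161 by limma, the smallest of the set), and on 1420696_at it differed by -0.37, again without overlap.

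Class 6 semaphorins did not share a direction. Sema6a, which guides granule cells through plexin A2, was lower on 1425903_at, with -0.55, -0.42 and -0.19 in Cstb-/- and 0.11, -0.07, 0.03 and -0.07 in controls (difference -0.39, adjusted p = 0.0486 by limma). Its other probe sets differed by -0.18 and 0.08. Sema6d was higher on 1448060_at, with 0.65, 0.29 and 0.77 against 0.09, -0.21, 0.11 and 0.00 (difference 0.57, adjusted p = 0.0318 by limma), and on its other 3 probe sets by 0.10 to 0.20. Among Slits, Slit2 was higher by 0.42 on 1424659_at with touching ranges, and by 0.11 on 1458140_at. Of the ephrins, Efnb2 1449549_at was higher without overlap by 0.33 (adjusted p = 0.0606 by limma). Netrins were lower on 9 of 12 probe sets. The largest difference in size was that of Ntng1 1449286_at at 0.44, while the other Ntng1 probe sets differed by -0.16 to -0.08. Ntng2 1432033_at differed by -0.42.

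**Figure D4:**
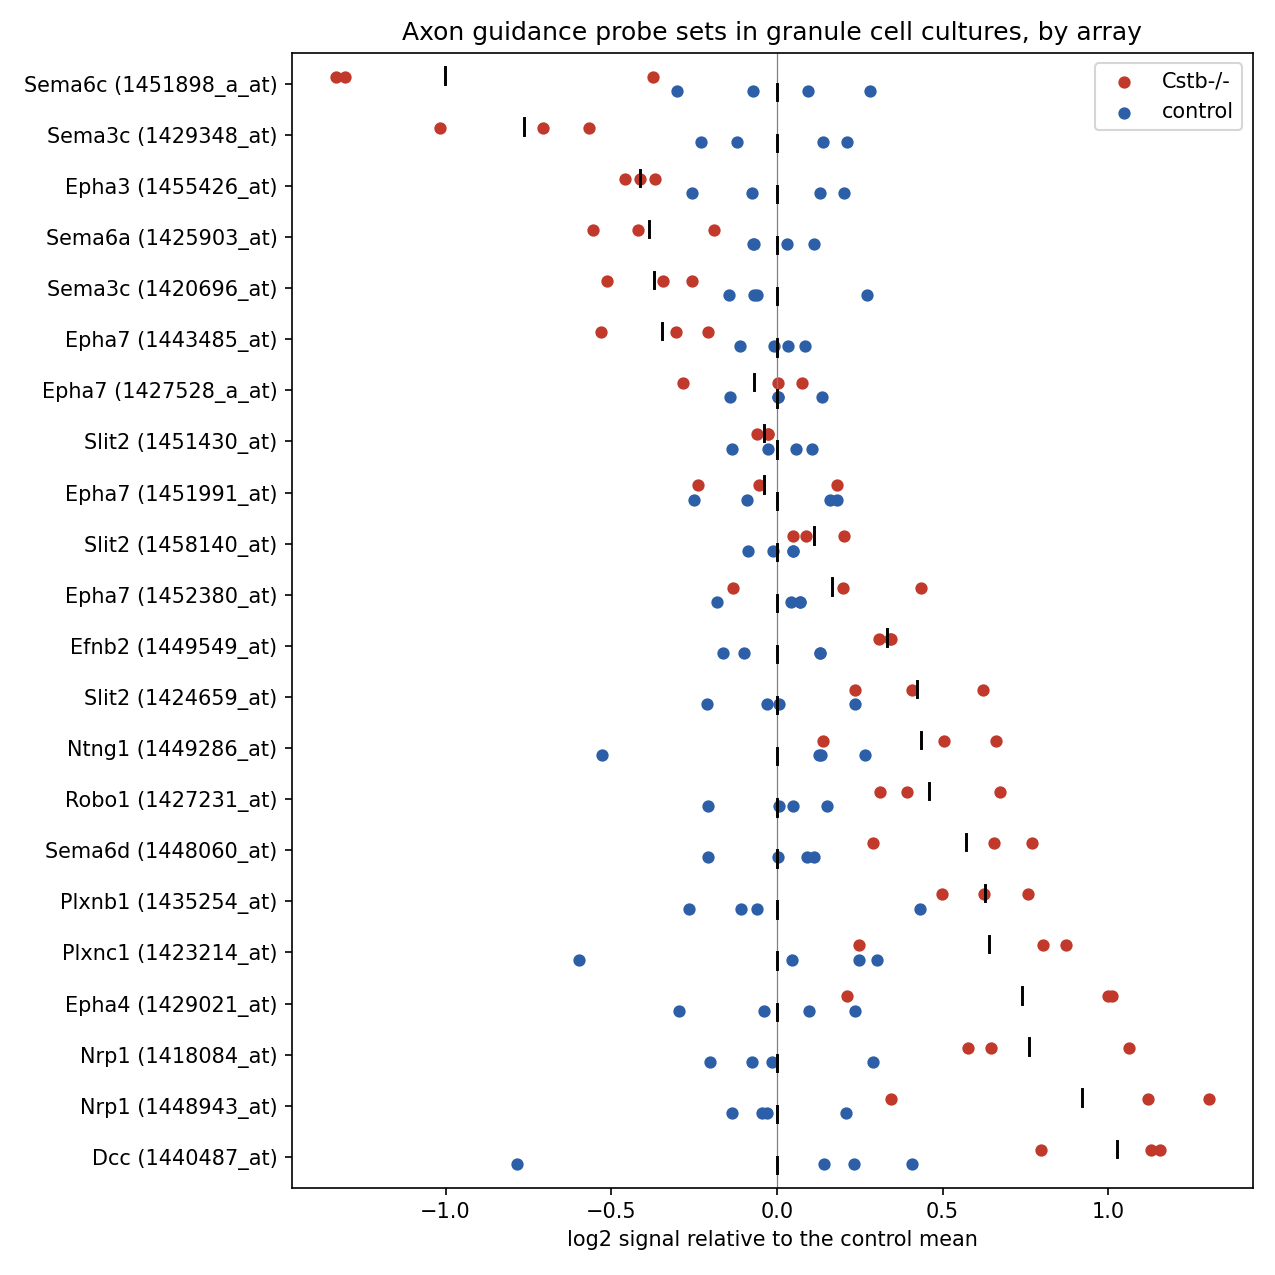
log2 signal of named axon guidance probe sets in granule cell cultures relative to the control mean (horizontal axis), with 1 row per probe set, a red point for each Cstb-/- array, a blue point for each control array and black bars at the group means. For Sema6c and Epha4 1 Cstb-/- array lies close to the controls, and for Dcc 1 control array lies far below the others.

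Single arrays weighed on the calls in CGCs. Without Cstb-/- array 2, limma called 6 axon guidance probe sets at an adjusted p under 0.01, beside 5.96% of all probe sets: Sema6c (-1.32), Sema6d (0.71), Epha4 1429021_at (1.01), Plxnc1 1443434_s_at (0.55), Sema3f 1438947_x_at (-1.34) and Ntng2 1432033_at (-0.60). Sema3f and Ntng2 are named here after their values were seen. Without Cstb-/- array 3 only Nrp1 1448943_at was called (1.21), and without control array 4 only Plxnb1 (0.77). The share of all probe sets called in these fits is not given here, so neither call can be set against the background. With array weights 4 were called, beside 6.28% of all probe sets, and a fit that took its spread from all 6 groups called 11, beside 12.7%. Tied values between arrays, which come from the deposited table, touched 91 of the 162 probe sets in CGCs (56.2%, against 51.3% of all).

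Markers of some cell types were far apart between the CGC groups, and those of others were not. Of 25 meningeal fibroblast probe sets 15 changed, all higher, and the list mean lay between 1.16 and 1.22 on the Cstb-/- arrays and between -0.05 and 0.08 on the controls. Of 21 probe sets for proliferating cells 15 changed, all higher (list means 1.16 to 1.28 against -0.14 to 0.09). Astrocyte and Bergmann glia markers changed on 6 of 31, all higher and all of Gja1 or Aldh1l1. Of these 31, 27 were higher (list means 0.42 to 0.58 against -0.11 to 0.21). Pericyte and smooth muscle markers changed on 3 of 21, all higher, for Acta2, Tagln and Pdgfrb. That list had 11 probe sets higher and 10 lower (median 0.07, list means 0.32 to 0.39 against -0.05 to 0.04). Of 21 granule neuron probe sets 1 changed, lower, while 13 were higher and 8 lower (median 0.06, list means -0.07 to 0.11 against -0.07 to 0.05). Of 23 Purkinje cell probe sets 1 changed higher and 1 lower, with 13 higher and 10 lower in all (median 0.02). Oligodendrocyte markers were lower on 21 of 28 probe sets, with 1 changed, higher (list means -0.36 to 0.13 against -0.04 to 0.03). The microglial, endothelial and choroid plexus lists held no changed probe set. The part of these cells in the values of Nrp1, Dcc, Sema3c and the others above was not tested.

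Genes that work beside the cues and receptors were described from lists of co-receptors, adhesion partners and other cues (25 genes, 74 probe sets) and of signalling inside the growth cone (45 genes, 130 probe sets). None changed at P7 or P30 by limma, where 10 and 10 probe sets of the first (13.5% each) and 16 and 10 of the second (12.3% and 7.69%) had an unadjusted p under 0.05, against 9.45% and 7.72% of all probe sets. In CGCs, where 2.54% of all probe sets changed, 3 probe sets of the first list did (4.05%), all higher: Cxcr4, the chemokine receptor that holds granule cell precursors at the surface (1.44, adjusted p = 0.00463 by limma), Wnt5a, a secreted Wnt (0.96, adjusted p = 0.00678), and Flrt2, a repellent ligand of Unc5d (0.85, adjusted p = 0.00196). Of the second list, 3 changed (2.31%), all higher: Srgap2, a Slit-Robo GTPase activating protein (1.09, adjusted p = 0.00405 by limma), Chn1, a Rac regulator downstream of Eph receptors (1.04, adjusted p = 0.00715), and Enah, an actin regulator at the growth cone tip (0.71, adjusted p = 0.00986). The median differences of the lists in CGCs were 0.05 and 0.03.

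Whether the genotype difference itself differed between experiments was tested with a contrast of the within-experiment differences. Between P30 and P7, limma found 0 of 162 axon guidance probe sets to differ (22 at an unadjusted p under 0.05), beside 0.124% of all probe sets. The smallest adjusted p was 0.224, for Sema3a (-0.30 at P7 and 0.37 at P30). Between CGCs and P7, 29 probe sets of 22 genes differed, 14 in the positive and 15 in the negative direction (17.9%, against 20.3% of all probe sets). The share was below the background. Here the spread was pooled over all experiments, and tissue, age and handling cannot be told apart between them.

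Dcc 1440487_at differed most between CGCs and P7, by 1.38 (SE 0.25, adjusted p = 0.000788 by limma), from -0.35 at P7 to 1.03 in CGCs. Nrp1 1448943_at followed the same course, from -0.25 to 0.92, as did Epha4 1429021_at, from -0.43 to 0.74, Plxnc1 1423214_at, from -0.40 to 0.64, and Robo1 1427231_at, from -0.25 to 0.46. Each value belongs to a single probe set. Of the others, some of Dcc, Plxnc1, Robo1 and Epha4 ran the opposite way, by as much as -0.47, -0.45, -0.32 and -0.17, and some the same way. None that ran the opposite way had an adjusted p under 0.05 by limma. Cues with a positive difference included Sema6d 1448060_at, from -0.10 to 0.57, and Slit2 1458140_at, from -0.46 to 0.11. By count, receptors gave 11 of the 14 positive and 1 of the 15 negative differences, a description with no test. Sema4d 1434596_at ran the opposite way, from 0.49 at P7 to -0.31 in CGCs (difference of differences -0.80, adjusted p = 0.000903 by limma), and its other 2 probe sets also differed in that direction. Of the 29, 13 probe sets of 11 genes passed with each array left out in turn, those of this paragraph named by number among them.

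**Figure D5:**
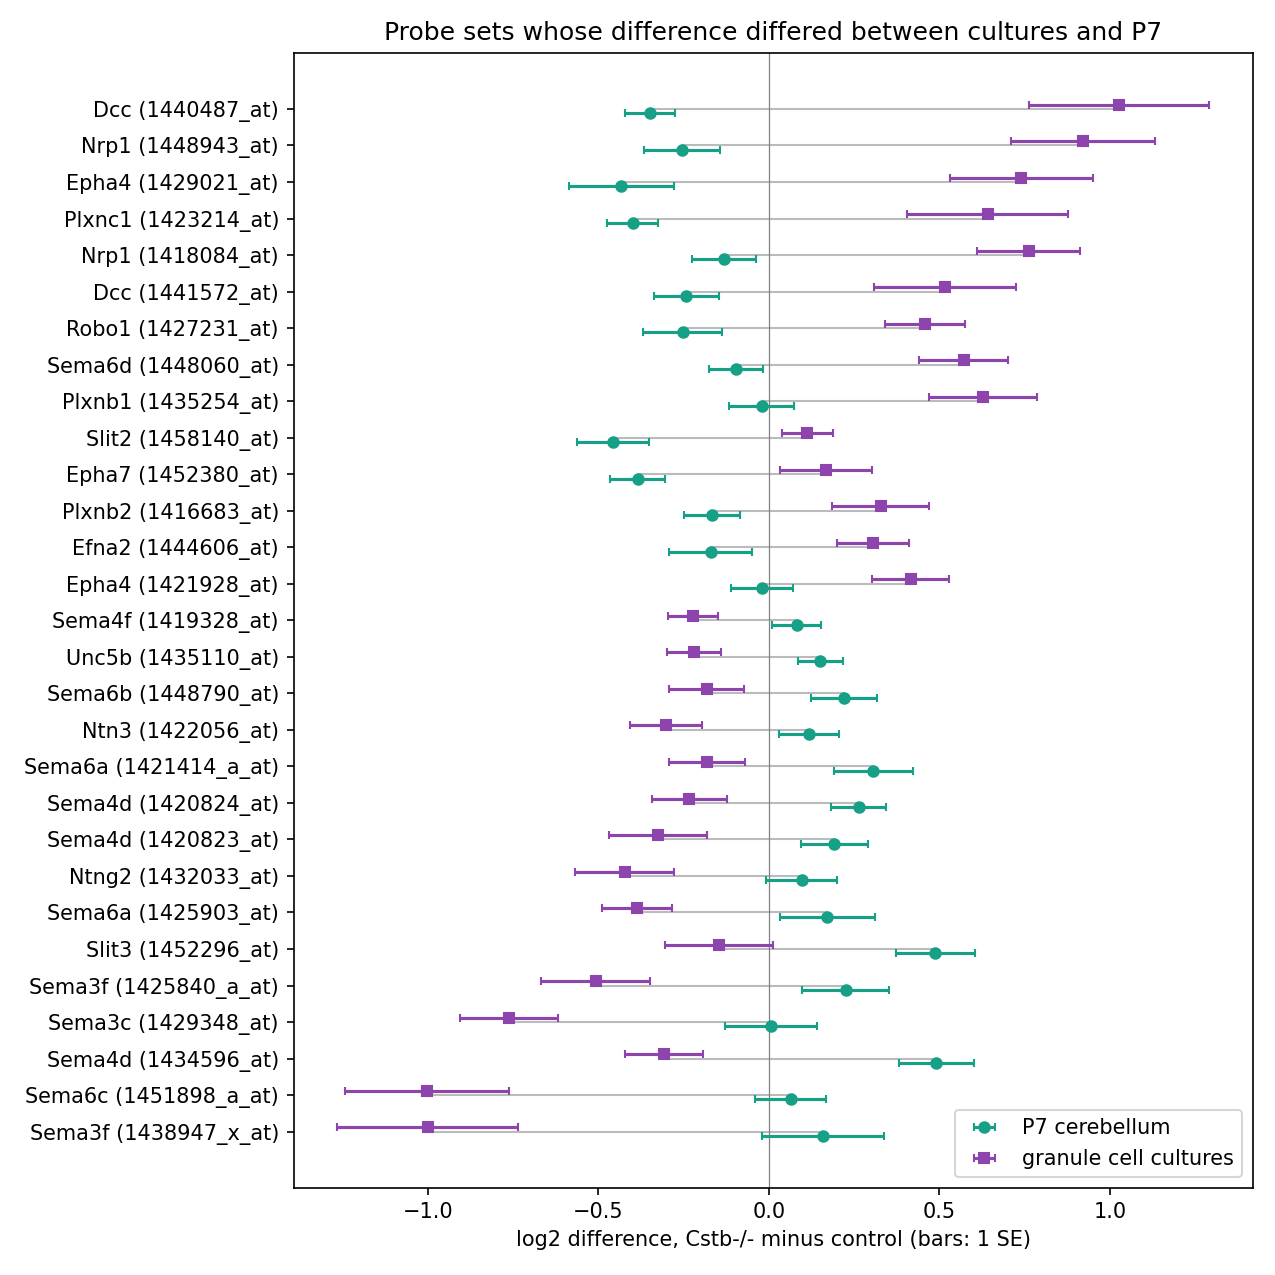
log2 difference, Cstb-/- minus control, at P7 (green circles) and in granule cell cultures (purple squares) for the 29 axon guidance probe sets whose difference differed between the experiments, with bars of 1 SE and 1 row per probe set. In the 14 upper rows the culture value lies above the P7 value, led by Dcc, and in the 15 lower rows below it.

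Probe sets of a gene often differed among themselves. Of the 48 genes with several probe sets, all agreed in sign for 22 at P7, 24 at P30 and 23 in CGCs. Nrp1 kept its pattern of 3 probe sets against 1 at P30 and in CGCs, and Plxnb1 parted the genotypes on 1 of 2 probe sets in both. Slit2 did so on 1 of 3 at P7 and on none in the other experiments. For these genes a value by gene depends on the probe set taken.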

How the data were processed

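The deposited values are log2 signals. According to the methods, they were made by the authors with RMA (background adjustment, quantile normalization and summary by probe set), after which each probe set was centred on its median, leaving a median of 0 within each experiment. The version of the software is not given in the sources used here. Levels and signal over background are not kept, and the number of arrays limits the precision.

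Of 45101 probe sets, 64 controls were left out. Gene symbols came from the platform annotation, in which 34945 probe sets had 1 symbol, 932 several and 9160 none. All 73 member genes matched RefSeq (GRCm38.p6) by Entrez ID with the same symbol. Each experiment was fitted apart, Cstb-/- against control, with limma 3.58.1 in R 4.3.3 (lmFit, eBayes, 2-sided, Benjamini-Hochberg over all 45037 probe sets). Differences between experiments came from contrasts in 1 fit over the 6 groups. The script was tested on simulated data with planted changes.

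The members, the gene lists and the rule for naming genes were chosen with earlier results of these data known. The rule took, in each experiment, the changed probe sets, the largest difference of each family, the 5 highest and 5 lowest probe sets without overlap, and all probe sets of Slit2 and Epha7. Others are named after their values were seen.

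Replicate numbers did not pair the arrays: same-numbered deviations correlated between 0.00575 and 0.168 at P7 and between -0.178 and -0.0337 at P30. Alternatives were the methods' t-test, labelled sex, array weights, robust variances, 1 fit over all groups, the mean of the probe sets of a gene, the replicate number as a block and each array left out. Tables were handled in Python 3.11.15 with pandas 2.3.3 and numpy 2.4.6.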

Additional observations from a re-analysis of the deposited data

Results flagged for a closer look

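2 arrays stood apart from the others of their group among 62 groups of 4 values examined, where chance gives about 1 in 20. Ntn4 1450512_at read 0.52 on P7 Cstb-/- array 5, beside 0.10 to 0.16 on the other 3. Epha7 1452380_at read -0.18 on CGC control array 5, beside values close together above 0.

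For 15 probe sets named above, the genotype difference in CGCs minus that at P7 passed the test of the difference itself (limma, adjusted p under 0.05). It was positive for Dcc 1440487_at (1.38), Nrp1 1448943_at (1.18) and 1418084_at (0.89), Epha4 1429021_at (1.17), Plxnc1 1423214_at (1.04), Robo1 1427231_at (0.71), Sema6d 1448060_at (0.67), Plxnb1 1435254_at (0.65), Slit2 1458140_at (0.57) and Epha7 1452380_at (0.55). It was negative for Sema6c 1451898_a_at (-1.07), Sema4d 1434596_at (-0.80), Sema3c 1429348_at (-0.77), Slit3 (-0.63) and Sema6a 1425903_at (-0.56). Slit3, Epha7 and Sema6a lost the call when single arrays were left out, in 6, 5 and 2 of 15 fits.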

How the results depend on the processing

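The count of axon guidance probe sets passing, 0 in each experiment, rose at P7 to 5 with the methods' t-test corrected over probe sets past the fold and to 8 with labelled sex, at P30 to 1 with that t-test and to 1 with array weights, and in CGCs to 4 with array weights, to 10 at an adjusted p under 0.05 (chosen after seeing the data) and to 11 with 1 fit over all groups. With 1 array left out it was 0 throughout at P7 and P30 and 0 to 6 in CGCs. The differences between CGCs and P7 numbered 15 to 38 with 1 array left out, lowest without CGC Cstb-/- array 3. With the replicate number as a block the count was 0 at P7 and P30, and the block changed no call. No paired analysis was possible in CGCs because the groups share no numbers. A filter on dim probes was not run, since levels are not kept.

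Over all alternatives, 1128 values of the named probe sets kept direction and side of the threshold, 36 came to pass and 20 changed sign, all of differences far from passing. The mean over a gene's probe sets turned Efnb2 at P7 (-0.0087), Slit2 1451430_at (-0.29 at P7, -0.069 at P30, 0.17 in CGCs), Robo1 1457407_at at P30 (0.065) and Epha7 1452380_at in CGCs (-0.071). Labelled sex turned Slit2 1451430_at at P7 (-0.043) and 1424659_at at P30 (0.15). Array weights turned Epha7 1427528_a_at (0.012) and 1451991_at (0.0094) in CGCs. With 1 array left out, values ran through 0 for Slit2 1451430_at at P7 (-0.048 to 0.063), for Slit2 1424659_at (-0.43 to 0.19), Epha7 1427528_a_at (-0.014 to 0.19) and Epha7 1452380_at (-0.027 to 0.25) at P30, and for Epha7 1427528_a_at (-0.14 to 0.039) and 1451991_at (-0.15 to 0.063) in CGCs. The cause was not tested.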
